A study of Homo sapiens with 6 samples.

Results

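The genes examined here encode the protein subunits of the mitochondrial ribosome, and they were chosen by name. Every protein-coding gene whose symbol consists of MRPL or MRPS, a number and at most 1 further letter was taken. The rule gave 78 genes of the 36651 in the expression table, which held 17656 protein-coding genes. Of these, 48 carry MRPL names (large subunit) and 30 carry MRPS names (small subunit), and MRPS17 is listed under 2 gene identifiers, so that there are 77 symbols. No expression value entered the rule, but the family was chosen with earlier results of these data known. The cells were HCT116, a human colorectal carcinoma line of epithelial origin. Polyadenylated RNA from 3 control samples and 3 samples labelled siMTA1 was sequenced as directional paired-end libraries. MTA1 is a subunit of the NuRD chromatin remodelling and deacetylase complex, and the study asked how lowering it affects transcript levels and splicing. The controls are described as Ctrl and titled WT, and no agent given to them is named. The treated samples are described as siMTA but titled CrMTA1, and the labels leave that abbreviation unexplained. RNA interference in a pool of cells and genome editing of a line therefore cannot be told apart from the labels. The descriptions of both groups also carry the tag 3rd, which is not explained. Nothing in the labels says that the replicates came from separate cultures, and if they did not, the p-values cover technical spread alone.

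The mitochondrial ribosome translates the few messenger RNAs that the mitochondrial genome encodes, all of them for subunits of the respiratory chain and the ATP synthase. Its ribosomal RNAs are made inside the organelle, whereas all of its proteins are encoded in the nucleus, translated in the cytosol and imported. Some of these proteins descend from bacterial ribosomal proteins and others were added in mitochondria, and the genes are spread over the genome: the members lay on 21 chromosomes, with no more than 8 on any of them.

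What the members share in sequence is shown first, because neither the rule nor the expression values used it. Promoters from 250 bases before to 50 bases after the transcription start were available from RefSeq (GRCh38.p14) for 68 of the 77 symbols. The letters AAGATGGC, the core bound by the transcription factor YY1, stood on the coding strand within 50 bases after the start in 15 of the 68 members (22.06%). The same letters stood there in 300 of 8349 tested protein-coding genes (3.593%) and in 1.388% of all 27305 promoters. In 12 of the 15 members the ATG inside these letters was an annotated start codon in GENCODE 29, so the letters also form the context of the start of translation. The 6 members below had the match and fell in the siMTA1 libraries. Each window is 30 bases of the coding strand on GRCh38.p14, with the match in capitals.
MRPL22, chr5:154941093-154941122, plus strand: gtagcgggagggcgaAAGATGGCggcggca
MRPL38, chr17:75904860-75904889, minus strand: aggccggagggAAGATGGCggcgccctggt
MRPL46, chr15:88467362-88467391, minus strand: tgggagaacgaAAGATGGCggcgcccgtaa
MRPS18B, chr6:30617852-30617881, plus strand: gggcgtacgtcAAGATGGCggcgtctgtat
MRPS27, chr5:72320206-72320235, minus strand: tggtacgctccAAGATGGCtgcctccatag
MRPS30, chr5:44808949-44808978, plus strand: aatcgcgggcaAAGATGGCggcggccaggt

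The same letters occurred in 9 members that did not pass the test, and 3 of these are shown because their values are given later: the member with the highest fold change, the tested member with the lowest level and the paralog MRPS18A.
MRPL51, chr12:6493223-6493252, minus strand: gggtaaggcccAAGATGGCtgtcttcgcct
MRPL42, chr12:93467511-93467540, plus strand: aggattgaaacAAGATGGCgggttcgtggt
MRPS18A, chr6:43687764-43687793, minus strand: gtaggtttttgAAGATGGCggccctcaagg

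The letters of 2 other factors tied to nuclear genes for mitochondrial proteins were searched on both strands of the whole 300-base promoters. The ETS letters CCGGAAGT or CGGAAGTG, which overlap one another and form the core bound by GABP, were in 12 of 68 members (17.65%), against 12.66% of the tested protein-coding genes and 6.006% of all promoters. The NRF1 letters CGCATGCG or GCGCATGC, which also overlap one another, were in 6 members (8.824%), against 5.941% and 3.366%. AAGATGGC over the same promoters and both strands was in 20 members (29.41%), against 5.917% and 3.032%. The 150 bases before the start are shown for MRPL3 and MRPL22, which fell, and for MRPL20, which did not pass the test, with the matches in capitals. The match begins 32 bases before the start in MRPL3 (ETS), 24 bases before it in MRPL22 (NRF1) and 44 bases before it in MRPL20 (ETS). A match is a description of the letters and does not show that a factor bound there.
MRPL3, chr3:131502972-131503121, minus strand: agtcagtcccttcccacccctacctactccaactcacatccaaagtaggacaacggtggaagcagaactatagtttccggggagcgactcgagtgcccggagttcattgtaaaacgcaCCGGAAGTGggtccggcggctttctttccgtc
MRPL22, chr5:154940923-154941072, plus strand: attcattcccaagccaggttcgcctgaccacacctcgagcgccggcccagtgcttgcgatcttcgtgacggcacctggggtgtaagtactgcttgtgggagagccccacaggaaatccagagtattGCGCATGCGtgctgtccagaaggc
MRPL20, chr1:1407294-1407443, minus strand: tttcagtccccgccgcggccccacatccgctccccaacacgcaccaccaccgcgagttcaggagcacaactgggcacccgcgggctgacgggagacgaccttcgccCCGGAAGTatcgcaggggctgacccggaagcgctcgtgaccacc

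Levels are given in FPKM, sequenced fragments scaled to transcript length and to the size of the library, as deposited. The low values of short genes implied depths of 43000000 to 66500000 fragments per library, with control library 1 the shallowest. Values are listed in the order of libraries 1, 2 and 3, the controls first and siMTA1 second. MTA1 stood at 65.9, 67.6 and 66.7 FPKM with the control and 44.6, 44.0 and 48.0 FPKM with siMTA1. The groups did not overlap, and the log2 fold change was −0.54 (SE 0.06, limma adjusted p = 0.0003761). An exact permutation test of the 6 values gave p = 0.1, two-sided, the smallest that 3 against 3 allow. The 7 epithelial markers summed to 6641 to 6962 FPKM in the controls and 5749 to 6396 FPKM in the siMTA1 libraries, a sum made up mostly of the keratins KRT19, KRT8 and KRT18. Of the 7, KRT8 and KRT18 were lower and CDH1 was higher (log2 fold changes −0.29, −0.25 and 0.27, limma adjusted p = 0.0148, 0.03361 and 0.00874), and the part of these shifts in the results was not tested. The other markers were near the floor of the table: fibroblast markers summed to 1.94 to 2.01 and 2.17 to 2.76 FPKM, of which COL1A1 made up most and DCN was at 0 in every library, leukocyte markers to 0.29 to 0.48 and 0.54 to 0.60 FPKM, and endothelial markers to 0.12 to 0.24 and 0.14 to 0.28 FPKM.

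Transcripts of the mitochondrial ribosomal proteins were lower in the siMTA1 libraries, by modest amounts and in both subunits. Of 77 members tested (a mean of at least 1 FPKM), 31 were lower at an adjusted p under 0.05 in limma and 0 were higher. Over all 12141 tested genes, 12.1% were lower and 6.13% were higher, and among the 7087 genes averaging 5 FPKM or more, which include all 77 members, 13.8% were lower and 6.59% higher. At an unadjusted p under 0.05, 48 members were lower and 0 were higher, against 23.5% and 11.5% of all tested genes. The log2 fold change was negative in 75 of the 77. Its median was −0.19 over the members, with quartiles of −0.25 and −0.12, and −0.05 over all tested genes. Every siMTA1 library was below every control library in 48 members, as in 25.9% of all tested genes, and above every control library in 0 members, as in 13.2% of all tested genes. Among the 31, the siMTA1 mean was 12.89% to 25.21% below the control mean, with a median of 17.29%. FPKM is scaled to the size of the library, so amounts of RNA per cell were not measured. A fall in all cells and a larger fall in some of them cannot be told apart in such bulk samples.

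**Figure D1:**
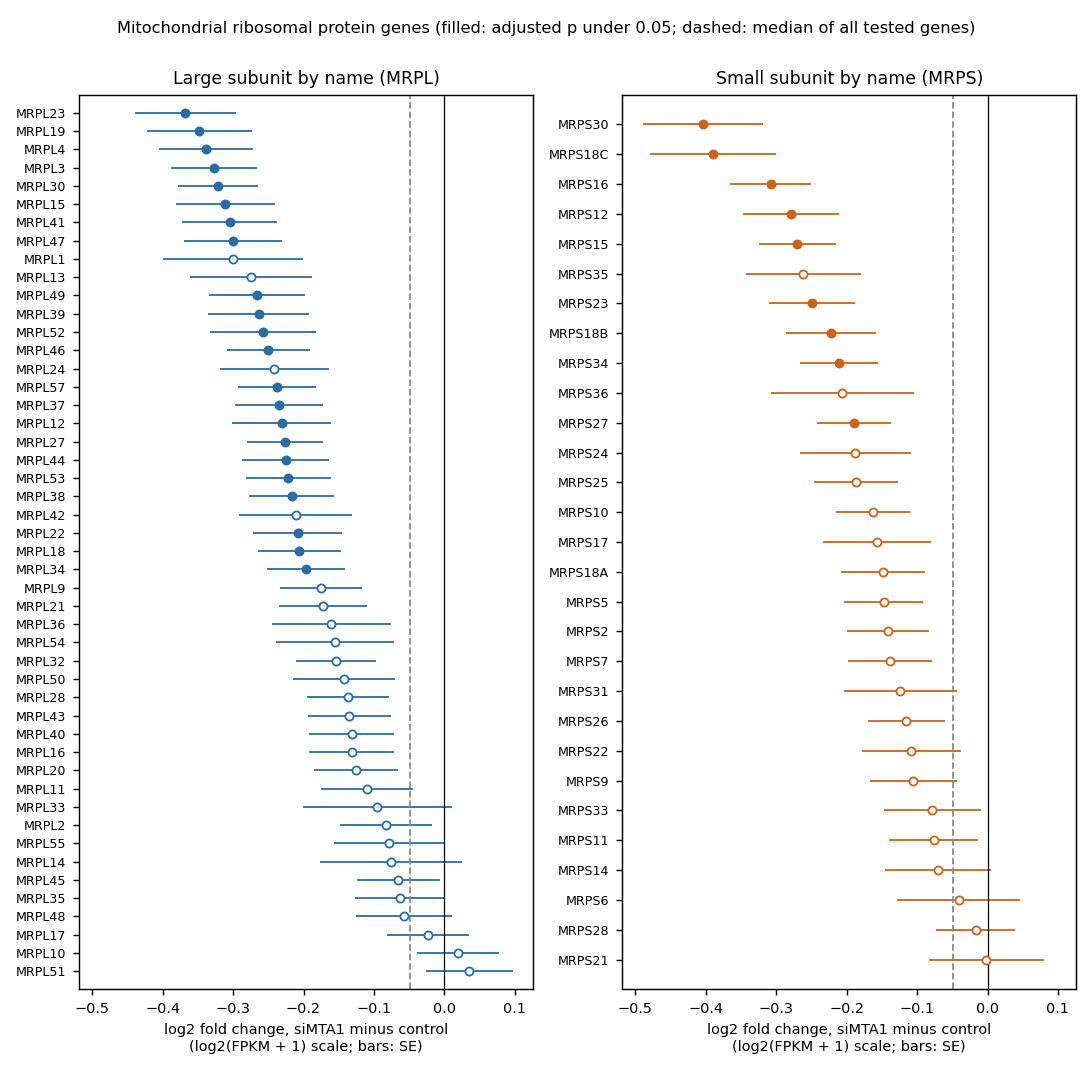
Log2 fold change (siMTA1 minus control, log2(FPKM + 1) scale) of the 77 tested members, with large-subunit names on the left and small-subunit names on the right. Points are estimates and bars are standard errors from limma over 3 libraries a group, filled points have an adjusted p under 0.05, and the dashed line is the median of all tested genes (−0.05); 75 of 77 points lie left of 0.

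**Figure D2:**
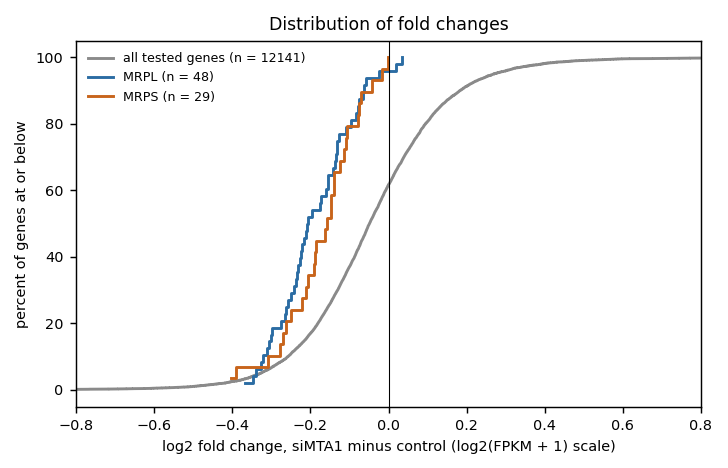
Cumulative distribution of the log2 fold change (siMTA1 minus control, log2(FPKM + 1) scale) for 48 MRPL genes, 29 MRPS genes and all 12141 tested genes; the vertical axis is the percent of genes at or below a value, and the few genes beyond the ends of the horizontal axis are not drawn. The curves of both subunits lie left of the curve of all genes over most of their range, with medians of −0.21, −0.16 and −0.05.

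How many calls were made depended on the libraries and on the scaling. Leaving out control library 2 or siMTA1 library 2 left 12 members lower, when 5.4% and 5.29% of all genes tested in these fits were lower. Leaving out siMTA1 library 1 left 14 members lower (8.27% of all genes) and leaving out siMTA1 library 3 left 20 (8.35%), and in each of these fits 0 members were higher. MRPL30, MRPL3, MRPS16, MRPL23 and MRPL4 were lower in all 6 fits that left out 1 library. The members' median log2 fold change lay between −0.19 and −0.17 in those fits. Scaling each library by its median, its upper quartile or all its quantiles gave 13, 17 and 17 lower members and 0 higher, when 6.61%, 7.73% and 7.37% of all tested genes were lower. The same scalings changed the balance over all tested genes from 1463 lower and 744 higher to 802 and 1128, to 939 and 1000, and to 895 and 1011. The members' median fell below that of all tested genes by 0.14, 0.13 and 0.14 on the log2 scale under these scalings, against 0.14 in the values as deposited. The members called lower under all 4 scalings tried (those 3 and TPM) numbered 13: MRPL30, MRPL3, MRPS16, MRPL23, MRPL4, MRPS15, MRPS30, MRPL19, MRPL41, MRPL15, MRPS18C, MRPL47 and MRPS12. How many of all tested genes were lower under all 4 scalings, or in all 6 fits without 1 library, was not counted. These lists therefore do not show whether members kept their calls more often than other genes.

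In the large subunit, 22 of 48 MRPL genes were lower and 0 higher, at a background of 12.1% and 6.13%. Some genes of the peptide exit tunnel and the peptidyl transferase region are described first, a grouping by known place that was made after the values were seen and was not tested. It is mostly of called genes and is no full list, so it does not show how these regions behaved as a whole. MRPL3, a core protein that reaches toward the catalytic centre, was at 84.3, 81.2 and 77.9 FPKM in the controls and 66.1, 60.4 and 66.9 FPKM in the siMTA1 libraries. The groups did not overlap, and the siMTA1 mean was 79.49% of the control mean (log2 fold change −0.33, SE 0.06, limma adjusted p = 0.007477). MRPL4, which lines the exit tunnel, was at 31.2, 33.5 and 35.2 FPKM and then at 25.1, 25.3 and 27.9 FPKM (log2 fold change −0.34, SE 0.07, limma adjusted p = 0.009232). MRPL23, which sits at the mouth of the tunnel, was at 24.3, 26.2 and 23.0 FPKM in the controls and 19.0, 17.3 and 19.99 FPKM in the siMTA1 libraries. Its log2 fold change of −0.37 (SE 0.07, limma adjusted p = 0.00874) was the largest fall among the MRPL genes. MRPL47, the homolog of a bacterial protein beside MRPL23 at the tunnel exit, was at 34.0, 31.8 and 32.3 FPKM and then at 27.8, 27.7 and 23.7 FPKM. MRPL27, whose bacterial homolog extends into the peptidyl transferase centre, was a low-level member at 10.6, 10.6 and 10.2 FPKM in the controls and 8.70, 8.82 and 8.82 FPKM in the siMTA1 libraries. All 3 libraries of each group lay close together for this gene, and the limma adjusted p was 0.01934. MRPL22, which also lines the tunnel, was lower with a limma adjusted p of 0.04604. MRPL24, near the tunnel exit and the MRPL gene with the highest level, missed the threshold: it was at 112, 137 and 131 FPKM in the controls and 103, 112 and 106 FPKM in the siMTA1 libraries (log2 fold change −0.24, SE 0.08, limma adjusted p = 0.05629).

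Other large-subunit proteins of bacterial origin fell as well. MRPL30 had the smallest adjusted p of the family, with 11.8, 11.9 and 12.4 FPKM in the controls and 9.87, 9.29 and 9.12 FPKM in the siMTA1 libraries (log2 fold change −0.32, SE 0.06, limma adjusted p = 0.006355). It shares 19.5% and 13.1% of its exon bases with other annotated genes on the same strand, so its level is uncertain. MRPL19, at the interface with the small subunit, was at 22.8, 21.3 and 19.7 FPKM and then at 18.1, 15.8 and 15.7 FPKM. MRPL15 was at 27.97, 24.9 and 30.2 FPKM in the controls and 21.9, 22.3 and 22.1 FPKM in the siMTA1 libraries. For these 3 genes every siMTA1 value was below every control value, as in 25.9% of all tested genes. The spread among the controls of MRPL15 was wider than that among its siMTA1 libraries. MRPL18, MRPL34 and MRPL12 were also lower, with limma adjusted p-values from 0.03731 to 0.04833. MRPL12 forms the stalk that recruits translation factors, and 68.2% of its exon bases are shared with another annotated gene on the same strand, so its level is uncertain.

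Proteins added to the large subunit in mitochondria were lower in 11 of 19 members placed there and higher in 0, and those of bacterial origin in 12 of 31 and 0, at the same backgrounds of 12.1% and 6.13%. The difference between these shares was not tested. MRPS18A, which was not called, is counted here by its descent as of bacterial origin, whereas its paralog MRPS18B is counted below by its place. MRPL41 was at 17.1, 18.2 and 19.9 FPKM in the controls and 13.9, 15.1 and 15.1 FPKM in the siMTA1 libraries. MRPL46, a protein of the central protuberance, was at 16.0, 14.7 and 15.3 FPKM and then at 12.3, 13.3 and 12.6 FPKM. MRPL49 was at 18.2, 20.2 and 21.0 FPKM in the controls and 16.0, 15.7 and 17.2 FPKM in the siMTA1 libraries. In each of the 3 every siMTA1 library was below every control library, as in 25.9% of all tested genes, with limma adjusted p-values from 0.01508 to 0.02612. MRPL57 was at 18.7, 18.7 and 17.5 FPKM and then at 15.1, 15.8 and 15.2 FPKM (limma adjusted p = 0.0187). MRPL37 was at 28.1, 30.3 and 32.1 FPKM in the controls and 26.3, 24.7 and 25.4 FPKM in the siMTA1 libraries (limma adjusted p = 0.0304). The others of this kind that fell were MRPS30, described with the MRPS names, and MRPL38 and MRPL52 of the central protuberance, MRPL44, which has a fold related to RNase III, MRPL39 and MRPL53, the MRPL genes among them with limma adjusted p-values from 0.03347 to 0.04169. MRPL38 and MRPL53 share 37.5% and 45.2% of their exon bases with other annotated genes.

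Other large-subunit genes did not pass the test. MRPL51 was at 40.6, 40.7 and 39.96 FPKM in the controls and 39.9, 44.9 and 39.7 FPKM in the siMTA1 libraries, with a log2 fold change of 0.04 (SE 0.06, limma adjusted p = 0.7111). MRPL10, the base of the stalk to which MRPL12 attaches, was at 25.3, 25.1 and 27.6 FPKM and then at 25.8, 26.0 and 27.2 FPKM (log2 fold change 0.02, SE 0.06, limma adjusted p = 0.8401). The groups overlapped in both genes, and these were the only 2 members with a positive log2 fold change in the values as deposited. MRPL42 had the lowest level of the tested members, at 6.60, 5.67 and 5.32 FPKM in the controls and 5.28, 4.63 and 4.84 FPKM in the siMTA1 libraries. Its siMTA1 values all lay below its control values, but the limma adjusted p was 0.09252. MRPL45, which ties the ribosome to the inner membrane, had a log2 fold change of −0.07 (SE 0.06, limma adjusted p = 0.46).

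In the small subunit, 9 of 29 tested MRPS genes were lower and 0 higher, at the background of 12.1% and 6.13%. Their median log2 fold change was −0.16, against −0.21 for the MRPL genes, and the difference between the subunits was not tested. MRPS16, of bacterial origin, was at 20.6, 20.3 and 21.0 FPKM in the controls and 17.0, 15.6 and 17.0 FPKM in the siMTA1 libraries (log2 fold change −0.31, SE 0.06, limma adjusted p = 0.007497). MRPS15 had a higher level, at 125, 121 and 114 FPKM in the controls and 99.0, 99.1 and 99.3 FPKM in the siMTA1 libraries (log2 fold change −0.27, SE 0.05, limma adjusted p = 0.0106). The siMTA1 values of MRPS15 were nearly the same in the 3 libraries, whereas those of the controls were more spread. MRPS12, a protein of the decoding centre, was at 13.8, 12.9 and 15.0 FPKM and then at 10.6, 11.7 and 11.4 FPKM (limma adjusted p = 0.02263).

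Among small-subunit proteins without a bacterial counterpart at their place, 4 of 10 were lower and 0 higher, at the background of 12.1% and 6.13%. These include MRPS18B, which descends from a bacterial protein, and without it the count was 3 of 9, a choice added after the data were seen. Of the other tested members placed in the small subunit, those of bacterial origin, 4 of 16 were lower and 0 higher. The difference between these shares was not tested. MRPS34 had the highest transcript level of the family, at 227, 228 and 219 FPKM in the controls and 186, 194 and 203 FPKM in the siMTA1 libraries (log2 fold change −0.21, SE 0.06, limma adjusted p = 0.02826). MRPS23 was at 30.7, 27.2 and 27.5 FPKM and then at 23.5, 24.3 and 23.5 FPKM (limma adjusted p = 0.02273). In both, every siMTA1 library was below every control library, as in 25.9% of all tested genes. MRPS27, a pentatricopeptide repeat protein, was lower with a limma adjusted p of 0.0341, a call that none of the 6 fits without 1 library made. Among small-subunit genes of bacterial origin that were not called, MRPS5, next in level to MRPS34, was at 138, 143 and 133 FPKM in the controls and 119, 127 and 127 FPKM in the siMTA1 libraries, and its limma adjusted p was 0.09547. MRPS21, also of bacterial origin, overlapped between the groups, at 44.5, 40.3 and 39.8 FPKM and then at 41.2, 46.3 and 37.2 FPKM (log2 fold change −0.0017, SE 0.08, limma adjusted p = 0.9891).

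Some members carry small-subunit names but have other places or have close relatives. MRPS30, found in the large subunit in structures, had the largest fall of all members, from 35.5, 30.6 and 29.6 FPKM in the controls to 26.4, 22.04 and 23.1 FPKM in the siMTA1 libraries (log2 fold change −0.40, SE 0.09, limma adjusted p = 0.01286). The library numbered 1 was the highest in both groups for this gene. MRPS18A, MRPS18B and MRPS18C descend from 1 bacterial protein, and MRPS18A sits in the large subunit. MRPS18C was at 25.3, 23.9 and 20.1 FPKM and then at 18.9, 17.1 and 16.1 FPKM (log2 fold change −0.39, SE 0.09, limma adjusted p = 0.01721). MRPS18B was at 68.2, 74.8 and 73.9 FPKM in the controls and 60.7, 58.7 and 66.2 FPKM in the siMTA1 libraries (log2 fold change −0.22, SE 0.06, limma adjusted p = 0.03993). MRPS18A was at 36.1, 38.6 and 37.2 FPKM and then at 31.8, 33.5 and 35.5 FPKM (log2 fold change −0.15, SE 0.06, limma adjusted p = 0.1112). In all 3 paralogs every siMTA1 library was below every control library, as in 25.9% of all tested genes. Differences between their fold changes were not tested. MRPS18C and MRPS18A share 40.2% and 47.0% of their exon bases with other annotated genes, so their levels are uncertain. MRPS36, a component of the 2-oxoglutarate dehydrogenase complex rather than of the ribosome, was at 10.4, 8.04 and 8.87 FPKM and then at 7.92, 8.63 and 6.69 FPKM, with overlapping groups (limma adjusted p = 0.1773). With members assigned by their place in the structure, 23 of 50 in the large subunit and 8 of 26 in the small subunit were lower, and 0 were higher in either. Over all tested genes, 12.1% were lower and 6.13% higher. MRPS17 is uncertain: 1 of its 2 identifiers was at 0.76, 0.97 and 0.76 FPKM and then at 0.80, 0.66 and 0.48 FPKM and was not tested. The other, named AC092647.5 in GENCODE 29, was at 33.2, 28.8 and 27.0 FPKM and then at 25.8, 25.9 and 27.7 FPKM (limma adjusted p = 0.1764). It shares 61.4% of its exon bases with ZNF713 and 27.2% with the first identifier.

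Members differed in level by more than an order of magnitude, per transcript length. The mean control level ran from 5.86 FPKM (MRPL42) to 225.0 FPKM (MRPS34) over the tested members, with a median of 28.3 FPKM, and 54 members lay between 10 and 50 FPKM. Control library 1 held the highest of the 3 control values in 44 of the 77 tested members, and control library 3 the lowest in 39. Relative to the control mean of each gene, the median of the members was 0.04, −0.02 and −0.03 in control libraries 1, 2 and 3 and −0.19, −0.18 and −0.17 in siMTA1 libraries 1, 2 and 3, on the log2(FPKM + 1) scale. The medians of all tested genes lay between −0.01 and 0.01 in the controls and between −0.05 and −0.04 in the siMTA1 libraries. By this median the siMTA1 libraries were all on 1 side of all the controls for the family as a whole, and they were closer to each other than the controls were.

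**Figure D3:**
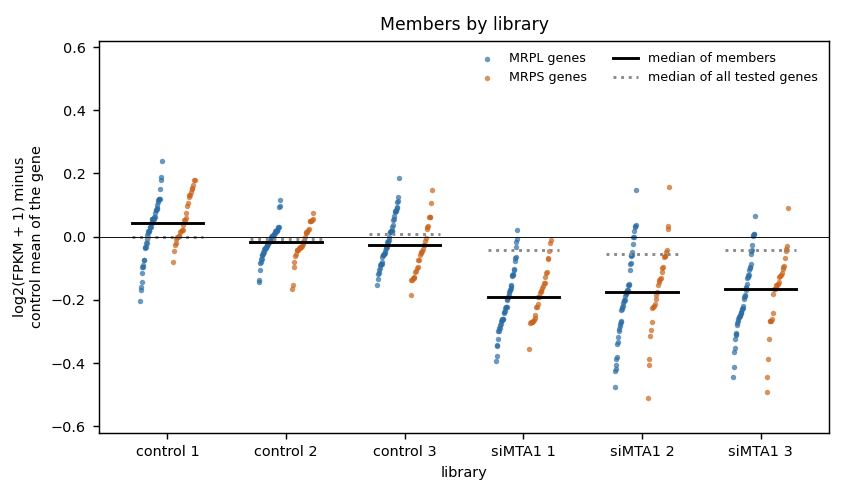
Difference of each tested member from its own mean in the controls (log2(FPKM + 1) scale) in each of the 6 libraries, MRPL genes on the left and MRPS genes on the right of each library. Points are genes, solid lines are medians of the members and dotted lines medians of all tested genes; the member medians are −0.19, −0.18 and −0.17 in the siMTA1 libraries.

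Summed over a subunit, the MRPL genes gave 1718, 1689 and 1690 FPKM in the controls and 1468, 1499 and 1498 FPKM in the siMTA1 libraries. The MRPS genes gave 1446, 1403 and 1349 FPKM and then 1228, 1245 and 1256 FPKM. The siMTA1 mean was 87.6% of the control mean for MRPL (1488 ± 17.6 against 1699 ± 16.5 FPKM, SD, n = 3 each) and 88.8% for MRPS (1243 ± 14.1 against 1399 ± 48.6 FPKM, SD, n = 3 each). The ratio of the sums was 1.22 ± 0.033 in the controls and 1.20 ± 0.0068 in the siMTA1 libraries (SD, n = 3 each), a difference within the spread of the controls. The cytosolic ribosomal protein genes, which encode the ribosome outside mitochondria, summed to 57730 to 59640 FPKM in the controls and 57580 to 60010 FPKM in the siMTA1 libraries, ranges that overlap. Of 81 of these genes tested, 6 were lower and 0 higher in limma, beside 12.1% and 6.13% of all tested genes. An unadjusted p under 0.05 was found in 12 of them in either direction, beside 23.5% lower and 11.5% higher over all tested genes. The mitochondrial sum was 5.26% to 5.33% of the cytosolic sum in the controls and 4.59% to 4.68% in the siMTA1 libraries, a ratio that multiplying a library by 1 factor does not change.

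**Figure D4:**
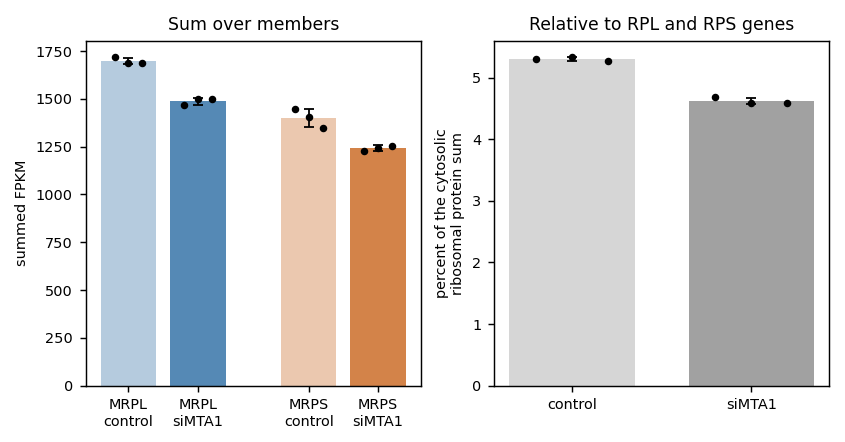
Left, summed FPKM of the MRPL and MRPS genes; right, the sum of all members as a percent of the summed FPKM of the cytosolic ribosomal protein genes. Bars are means, error bars SD and points the 3 libraries of each group; the siMTA1 points (4.59% to 4.68% on the right) lie below all control points in each of the 3 measures.

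The genes around the mitochondrial ribosome were examined by lists of their roles. Of 6 subunits of the ribosome that carry other names, 2 were lower and 0 higher, at the background of 12.1% and 6.13%. GADD45GIP1, a large-subunit protein, was at 86.0, 86.3 and 82.7 FPKM in the controls and 68.5, 69.0 and 71.4 FPKM in the siMTA1 libraries (log2 fold change −0.28, SE 0.05, limma adjusted p = 0.007166). ICT1, the older symbol of MRPL58, a peptidyl-tRNA hydrolase built into the large subunit, was at 63.9, 62.8 and 58.9 FPKM and then at 53.3, 51.8 and 55.6 FPKM (limma adjusted p = 0.03566). AURKAIP1, a small-subunit protein, missed the threshold with a limma adjusted p of 0.08115. Of 25 tested factors that assemble the ribosome or modify its RNA, 6 were lower and 0 higher. DDX28, an RNA helicase of large-subunit assembly, had the smallest adjusted p, from 4.48, 4.76 and 5.02 FPKM to 3.33, 3.32 and 3.54 FPKM (log2 fold change −0.39, SE 0.06, limma adjusted p = 0.004271). RPUSD3, a pseudouridine synthase family protein, was at 14.5, 13.3 and 14.7 FPKM in the controls and 11.0, 10.4 and 11.9 FPKM in the siMTA1 libraries. TFB1M, which dimethylates the small ribosomal RNA, was at 30.2, 26.5 and 27.6 FPKM and then at 22.3, 22.4 and 23.3 FPKM. For these 3 factors every siMTA1 library was below every control library, as in 25.9% of all tested genes. At an unadjusted p under 0.05, 5 of the 6 subunits and 13 of the 25 factors were lower and 0 were higher, against 23.5% and 11.5% of all tested genes.

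Among 13 translation factors of the organelle, 2 were lower and 0 higher, a share of 15.38% beside the background of 12.1%. MTFMT, which formylates the initiator transfer RNA, was at 5.35, 6.28 and 5.68 FPKM in the controls and 4.48, 4.16 and 4.24 FPKM in the siMTA1 libraries (log2 fold change −0.35, SE 0.07, limma adjusted p = 0.008538). MTIF2, the initiation factor that brings it to the ribosome, was at 45.9, 43.6 and 41.0 FPKM and then at 38.8, 38.0 and 32.0 FPKM (limma adjusted p = 0.0481). GFM2, which splits the ribosome after termination, missed the threshold with a limma adjusted p of 0.05489. Of 15 genes for transcription and RNA processing in mitochondria, 1 was lower and 0 higher: TFB2M, the transcription initiation factor, went from 24.2, 20.8 and 18.8 FPKM to 16.4, 17.2 and 16.2 FPKM (limma adjusted p = 0.02574). The elongation factor TEFM and the exonuclease PNPT1 followed with limma adjusted p-values of 0.0503 and 0.08763. At an unadjusted p under 0.05, 5 of the 13 translation factors and 7 of these 15 genes were lower and 0 were higher, at the same background of 23.5% and 11.5%. The ribosomal RNAs themselves did not pass the test: the limma adjusted p was 0.245 for MT-RNR1 (log2 fold change 0.13, SE 0.08) and 0.6443 for MT-RNR2 (log2 fold change 0.05, SE 0.07), in libraries selected for polyadenylated RNA.

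The factors whose letters were searched in the promoters were measured too. None of 8 tested transcription factors and coactivators of nuclear genes for mitochondrial proteins was called in limma. Over all tested genes, 12.1% were lower and 6.13% higher, so 0 of 8 does not set these factors apart. ESRRA and YY1 (2 of the 8) were lower at an unadjusted p under 0.05 in limma, against 23.5% lower and 11.5% higher over all tested genes. YY1 was at 21.5, 20.5 and 21.0 FPKM in the controls and 18.7, 17.0 and 20.5 FPKM in the siMTA1 libraries, and the groups met at the value of 1 library each (log2 fold change −0.16, SE 0.07, limma adjusted p = 0.134). ESRRA, an orphan nuclear receptor, had a log2 fold change of −0.18 (SE 0.07, limma adjusted p = 0.1102), and MYC one of −0.14 (SE 0.06, limma adjusted p = 0.1532). Those of NRF1 and of GABPA, the DNA-binding subunit of GABP, were 0.08 (SE 0.08) and −0.06 (SE 0.07). Among the members with a promoter, AAGATGGC after the start was in 6 of 29 that fell and 9 of 39 that were not called. The ETS letters were in 8 of 29 and 4 of 39, and the NRF1 letters in 4 of 29 and 2 of 39, and no test was made of these counts.

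Many of the members stand head to head with another gene. A protein-coding gene on the opposite strand started within 1000 bases of 29 of 77 members with tested values (37.66%), against 2023 of 10942 tested protein-coding genes (18.49%). In 21 cases the partner was tested and is no member of the family. Of these partners, 2 were lower (TCP1 and NDUFB5) and 3 were higher (EME1, SKA3 and NCAPD2), at the background of 12.1% and 6.13%. The median log2 fold change was −0.06 for the partners and −0.21 for their members. MRPL27 and EME1, a subunit of a DNA-junction endonuclease, start 6 bases apart, and EME1 rose from a mean of 4.84 to 6.39 FPKM (log2 fold change 0.34, limma adjusted p = 0.02195) while MRPL27 fell. MRPL57 and SKA3, a kinetochore protein, start 43 bases apart, and SKA3 rose from 5.27 to 6.52 FPKM (log2 fold change 0.26, limma adjusted p = 0.02744). In contrast, MRPL47 and NDUFB5, a subunit of respiratory complex I, both fell, NDUFB5 from 13.5 to 11.2 FPKM (log2 fold change −0.25, limma adjusted p = 0.03583). MRPL18 and TCP1, a subunit of the cytosolic chaperonin, also fell together, TCP1 from 135.2 to 116.7 FPKM (log2 fold change −0.21, limma adjusted p = 0.04172). MRPL46 and MRPS11 start 34 bases apart, and only the former was called; the difference between them was not tested. MRPL51 shares 31.3% of its exon bases with NCAPD2, so the values of both are uncertain. Where such partners share exon bases, the authors' counting may have divided reads between them.

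**Figure D5:**
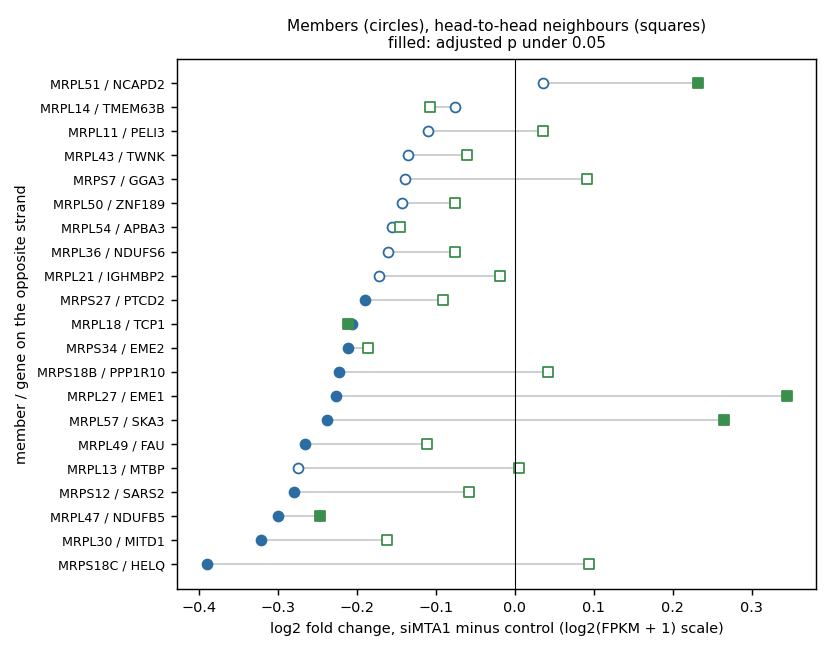
Log2 fold change (siMTA1 minus control, log2(FPKM + 1) scale) of 21 members (circles) and of the tested gene that starts within 1000 bases on the opposite strand (squares), ordered by the member. Filled symbols have an adjusted p under 0.05; 2 filled squares lie left of 0 (NDUFB5 and TCP1) and 3 lie right of it (EME1, SKA3 and NCAPD2).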

How the data were processed

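The authors deposited 1 table of FPKM values for 36651 genes in 6 libraries, with gene types. Per the submitters' processing notes, cutadapt, TopHat2, edgeR and GRCh38 were used, without versions or roles. The sources used here do not give the counting step, strand use, annotation or gene lengths, and reads of overlapping genes or pseudogene copies may have been split.

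Genes averaging 1 FPKM or more were tested with limma 3.58.1 in R 4.3.3 on log2(FPKM + 1), with an intensity trend, siMTA1 against control, 3 libraries each, no covariates, Benjamini-Hochberg adjustment over all 12141 genes and a threshold of 0.05. Fold changes on this scale understate those of low genes. Depth was inferred from the steps of low values. Exon overlaps, start codons and opposite-strand starts come from GENCODE 29. The fit was tested on simulated data.

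The members and lists were chosen with earlier results of these data known. Values in every library are given for up to 20 called members with the smallest adjusted p, the 3 highest and 3 lowest in level, the 3 largest changes each way, MRPS18 paralogs, MRPS30 and MRPS36, and up to 3 genes are named from each list. MRPL22, MRPL18, MRPL45 and other members outside this rule were named for their roles after their values were seen. Scaling, filter, pseudocount, variance, block and leave-one-out alternatives were run.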

Additional observations from a re-analysis of the deposited data

How the results depend on the processing

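The members' median log2 fold change was negative in all 18 alternatives, and 0 members were higher in any of them. Of the 31 members called lower, 3 (MRPL30, MRPL3 and MRPS16) kept the call in every alternative. The share of all called genes that did so was not counted. The counts lower (all members, MRPL, MRPS) were 13, 8 and 5 with median centring, 17 and 11 (all, MRPL) with upper-quartile scaling, 17 and 11 with quantile normalization, and 6, 4 and 2 with no filter on low values, when 1.14% of all genes were lower. With the 3 scalings, in this order, 6.61%, 7.73% and 7.37% of all genes were lower. Array weights gave 45 members, of which 15 were MRPS genes, when 21.5% of all genes were lower. Leaving out 1 library gave 12 to 24 members, 8 to 17 MRPL and 3 to 7 MRPS genes, when 5.29% to 9.82% of all genes were lower. The lowest count of members came without control library 2 or siMTA1 library 2. The calls over all genes were 2207 in the values as deposited, 4049 with array weights, 676 with no filter, and 1046 to 1773 without 1 library. The median was −0.13 with median centring, −0.17 with the length and GC trend removed (added after the data were seen), −0.14 with upper-quartile scaling, −0.14 with quantile normalization, −0.17 with array weights and −0.19 to −0.17 without 1 library. The siMTA1 sum as a percent of the control sum was 90.38% (MRPL) and 91.67% (MRPS) with upper-quartile scaling, and 87.27% to 90.35% (MRPS) without 1 library. For these changes the cause was not tested. Members that share under 20% of their exon bases with another gene, a choice added after the data were seen, were lower in 27 of 65. Over all tested genes in that fit, 12.1% were lower.

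Replicate numbers are shared between the groups, and the labels do not say whether libraries of equal number belong together. Deviations from the group means correlated at r = 0.331, 0.0219 and 0.219 across tested genes for numbers 1, 2 and 3. Control 1 with siMTA1 3 and control 3 with siMTA1 1 gave r = −0.254 and −0.277. Control 2 correlated best with siMTA1 3 (r = 0.0712) and siMTA1 2 with control 3 (r = 0.0221). Pairing by number was not tested. With the replicate block, 39 members were lower and 0 higher, and 2039 (16.8%) and 992 of all genes.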

Other observations

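The table also listed 25 pseudogenes and antisense genes named after members. MRPS31P5, a transcribed pseudogene of MRPS31, was the only one with a mean of at least 1 FPKM. It was at 3.29, 3.23 and 2.94 FPKM in the controls and 3.76, 3.76 and 3.85 FPKM in the siMTA1 libraries, with separate groups (log2 fold change 0.21, limma adjusted p = 0.04508). MRPS31 itself was at 40.4, 34.5 and 32.2 FPKM and then at 33.8, 32.2 and 31.6 FPKM (log2 fold change −0.12, SE 0.08, limma adjusted p = 0.2996). Of the others, 6 were listed at 0 in every library and the highest value of any was 0.48 FPKM. How the authors' counting divided reads between MRPS31 and its copies was not tested.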
